A study of Mus musculus with 23 samples.

Results

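Marco, Olr1, Trem2 and Cd36 encode 4 cell surface receptors for particles and lipids, and they were chosen by gene symbol out of the 754 genes of a NanoString nCounter mouse myeloid panel. All 4 were found, and all 4 were above the detection floor in at least 1 lung. The RNA came from left lungs of 23 mice that had been given 14 instillations, either of dust extract or of saline (PBS). Organic dust extract is a preparation of soluble material from organic dust. The Fat-1 strain is transgenic for a Caenorhabditis elegans desaturase, an enzyme that makes omega-3 fatty acids out of omega-6 ones, and its wild-type (WT) counterpart is not. By extract code the dust lungs came from 3 Fat-1 female, 3 Fat-1 male, 4 WT female and 3 WT male mice. The saline lungs came from 2 Fat-1 female, 3 Fat-1 male, 2 WT female and 3 WT male mice. All lungs had been lavaged before the left lobe was taken, so airway cells recovered in the fluid were not part of the sample. The strain background and age of the mice, and the promoter that drives the transgene, are not stated in the labels. A mouse has a single left lung, so each lung came from a different mouse.

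Marco is a class A scavenger receptor of alveolar macrophages that binds bacteria and inhaled particles. Olr1 encodes LOX-1, a lectin-like receptor for oxidised low-density lipoprotein on macrophages, neutrophils and endothelium. Trem2 senses lipids and lipoproteins on macrophages and signals through the adaptor Tyrobp (DAP12) and the kinase Syk. Cd36, a class B scavenger receptor, carries long-chain fatty acids into cells and takes up oxidised lipids, and in lung it is made by microvascular endothelium as well as by macrophages.

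The bases before the start site of each gene are shown because 3 of the 4 genes rose together after dust and the fourth fell. They are RefSeq sequences of mouse build GRCm38.p6, 250 bases per gene, 5′ to 3′ on the gene's own strand, with motif matches in capitals. The windows are chr1:120505025-120505274 (minus strand) for Marco, chr6:129507166-129507415 (minus strand) for Olr1, chr17:48346151-48346400 (plus strand) for Trem2 and chr5:17835897-17836146 (minus strand) for Cd36. For Olr1 and Cd36 the table's start lies inside the span of the gene, downstream of its outermost start.
Marco: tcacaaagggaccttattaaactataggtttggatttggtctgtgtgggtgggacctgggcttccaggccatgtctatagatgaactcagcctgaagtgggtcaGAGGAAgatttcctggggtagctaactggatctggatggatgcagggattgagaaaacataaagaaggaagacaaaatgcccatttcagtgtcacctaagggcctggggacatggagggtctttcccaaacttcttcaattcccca
Olr1: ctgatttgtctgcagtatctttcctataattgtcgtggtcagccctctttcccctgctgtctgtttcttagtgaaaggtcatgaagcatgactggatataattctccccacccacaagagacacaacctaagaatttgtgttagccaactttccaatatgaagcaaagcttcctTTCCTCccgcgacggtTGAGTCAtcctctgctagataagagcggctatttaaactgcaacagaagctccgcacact
Trem2: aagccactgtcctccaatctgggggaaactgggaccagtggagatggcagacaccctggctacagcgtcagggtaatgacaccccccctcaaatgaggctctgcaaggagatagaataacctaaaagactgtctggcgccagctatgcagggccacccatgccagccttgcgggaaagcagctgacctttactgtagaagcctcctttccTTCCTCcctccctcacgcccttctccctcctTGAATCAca
Cd36: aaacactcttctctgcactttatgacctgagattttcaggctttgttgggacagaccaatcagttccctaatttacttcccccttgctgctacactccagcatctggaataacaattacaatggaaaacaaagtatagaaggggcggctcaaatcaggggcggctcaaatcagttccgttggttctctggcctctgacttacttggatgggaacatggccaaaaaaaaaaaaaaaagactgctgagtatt

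Motifs of 6 factors or elements were searched on both strands. The core of PU.1, the transcription factor of myeloid cells, was taken as GAGGAA and lay in the windows of Marco, Olr1 and Trem2, starting 146, 76 and 40 bases before the start. It was not found in the Cd36 window. Of 32851 promoter windows of this length, 23.25% held it. For AP-1 the letters TGANTCA were searched, with any base at the centre, so matches are looser than a motif with a fixed centre. They matched TGAGTCA in the Olr1 window, 60 bases before the start, and TGAATCA in the Trem2 window, 9 bases before it. Of all windows 6.75% held a match to these loose letters. No printed match overlapped another. An NF-kappa-B motif (1.21% of windows), the E-box CACGTG (6.02%), a PPAR direct repeat (0.03%) and a TATA box (TATAAA, 12.37%) were in none of the 4 windows. The GC content of the windows was 47.6% for Marco, 45.2% for Olr1, 56.0% for Trem2 and 43.2% for Cd36, against a median of 52.4%. These are descriptions of letters, and binding was not measured.

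Values are normalized counts, that is, probe counts multiplied by 1 scale factor per lung. The total of counts above the floor was 110453 in the shallowest and 812429 in the deepest lung. Genes with fewer than 20 counts, or a value under 20 after scaling, are listed at an unscaled floor of 20, so the lowest value above the floor differed between lungs and reached 84.26. Lungs were extracted on a pair of days, with 5 dust and 6 saline lungs on day 2 and 8 dust and 4 saline lungs on day 1. The labels gave different groups for 4 lungs, which were placed by extract code. Fat-1 female saline lung 1 of day 1 and Fat-1 male saline lung 2 of day 2 were WT female saline by title and characteristics. Fat-1 male dust lung 1 of day 1 was WT male dust by both. WT male saline lung 2 of day 2 was WT female dust by title only, and no grouping by title was run. On run measures 4 lungs stood apart. Fat-1 male dust lung 1 of day 2 and WT male saline lung 1 of day 2 carried a scanner message of too concentrated a sample, Fat-1 female dust lung 2 of day 1 had the poorest fit of the positive controls (r2 of 0.9255), and WT female saline lung 1 of day 2 had the highest positive-control counts. The tissue markers Cdh1 and Lamp3 (epithelium) and Cdh5 and Tek (endothelium) were above the floor in every lung.

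Marco was higher in the dust lungs of both genotypes. Its normalized counts in Fat-1 dust lungs ran from a lowest of 274 over a median of 447 to a highest of 1249, and in WT dust lungs from 368 over 755 to 843. The Fat-1 saline lungs had 131, 181, 204, 205 and 339, and the WT saline lungs 88.3, 106, 126, 150 and 243. In all, 11 of 13 dust lungs lay above the highest saline lung. The exceptions were the dust lungs with the lowest values, both from Fat-1 females, at 274 and 317. Means were 546 ± 360 in Fat-1 dust lungs (SD, n = 6), 653 ± 188 in WT dust lungs (n = 7), 212 ± 77.3 in Fat-1 saline lungs (n = 5) and 143 ± 60.7 in WT saline lungs (n = 5). The dust strata exceeded the saline strata, while Fat-1 and WT did not differ beyond their spread within either exposure. Averaged over the 4 strata of genotype and sex, Marco rose by 1.70 on the log2 scale (SE 0.21, limma adjusted p = 1.44e-05). Of the 711 genes tested, 53.3% passed an adjusted p of 0.05, with 43.3% higher and 9.99% lower, and Marco ranked 66 from the top. That balance depended on the scaling, with 308 genes higher and 71 lower as deposited, 255 and 115 after housekeeping scaling, and 202 and 244 after centring each lung on its median. The median log2 difference of all genes tested was 0.26.

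By extract code, Olr1 separated the exposures without overlap. By title, WT male saline lung 2 of day 2 (153) would be a dust lung, and the exposures would then overlap. The Fat-1 dust lungs had a lowest value of 517, a median of 799 and a highest of 1649.9 normalized counts, and the WT dust lungs 307, 949 and 1224. The Fat-1 saline lungs had 176, 216, 219.6, 240.2 and 291, and the WT saline lungs 153, 159, 196, 259 and 292. All 13 dust lungs lay above the highest saline lung, but the margin was small, with 307 in WT female dust lung 2 of day 2 against 292 in WT female saline lung 1 of day 1. Of the genes tested, 25 (3.52%) had every dust lung above every saline lung. Means were 874 ± 402 in Fat-1 dust lungs, 836 ± 332 in WT dust lungs, 229 ± 41.6 in Fat-1 saline lungs and 212 ± 61.6 in WT saline lungs (SD, n = 6, 7, 5 and 5). The genotypes lay within their spread in both exposures. Olr1 rose by 1.86 (SE 0.23, limma adjusted p = 1.285e-05) and ranked 51 from the top.

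Trem2 was close to the floor in saline lungs, 2 of them at it, and varied widely among dust lungs. In Fat-1 dust lungs it ran from a lowest of 167 over a median of 261 to a highest of 1383 normalized counts, and in WT dust lungs from 106 over 425 to 497. The Fat-1 saline lungs had 20, 61.6, 63.6, 65.6 and 95.5, and the WT saline lungs 20, 37.4, 50.5, 81.7 and 119. The values of 20 are the floor, in lungs where no value between 20 and 84.26 (Fat-1 male saline lung 1 of day 1) or 64.82 (WT female saline lung 1 of day 1) could be read. In all, 12 of 13 dust lungs lay above the highest saline lung, and WT female dust lung 2 of day 2 lay below it. Means were 432 ± 468 in Fat-1 dust lungs, 361 ± 159 in WT dust lungs, 61.3 ± 26.9 in Fat-1 saline lungs and 61.7 ± 39.2 in WT saline lungs (SD, n = 6, 7, 5 and 5). Trem2 rose by 2.54 (SE 0.40, limma adjusted p = 7.903e-05) and ranked 14 from the top. With every value under 84.26 set to it, the rise was 1.82 (limma adjusted p = 0.0004454), close to that of Olr1.

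Cd36 went the other way. The Fat-1 dust lungs had a lowest value of 1815, a median of 6494 and a highest of 7387 normalized counts, and the WT dust lungs 4308, 6645 and 8653. The Fat-1 saline lungs had 9338, 9686, 9759, 10051 and 10707, and the WT saline lungs 6208, 8015, 9387, 9697 and 13127. The highest Fat-1 dust lung (7387) lay below the lowest Fat-1 saline lung (9338), while the WT exposures overlapped. How many genes separated in this way among Fat-1 lungs was not counted. The response of Cd36 did not pass as different between the genotypes (limma adjusted p = 0.9988). In all, 4 of 13 dust lungs lay below the lowest saline lung, which was WT female saline lung 1 of day 2. Means were 5893 ± 2034 in Fat-1 dust lungs, 6176 ± 1716 in WT dust lungs, 9908 ± 514 in Fat-1 saline lungs and 9287 ± 2551 in WT saline lungs (SD, n = 6, 7, 5 and 5). Cd36 fell by 0.72 on the log2 scale (SE 0.19, limma adjusted p = 0.004241), and it ranked 22 from the bottom of the 711 genes. Within the lungs of cartridge 1, the nCounter cartridge that held most day 2 lungs, the difference was −0.67 with a limma adjusted p of 0.1196.

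**Figure D1:**
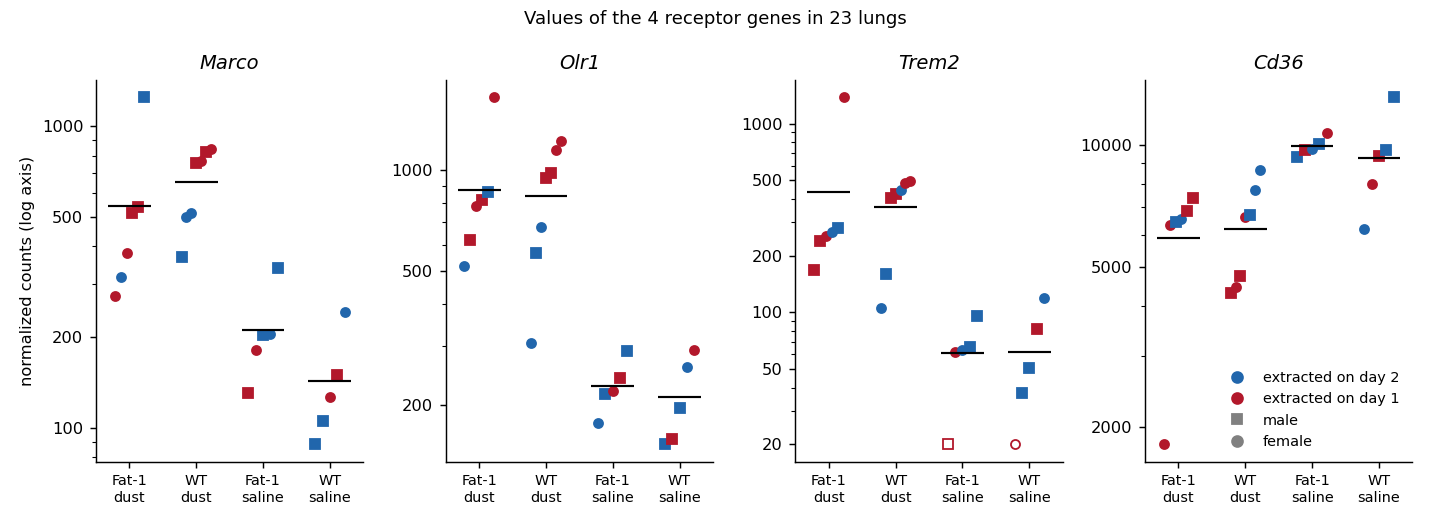
Normalized counts of Marco, Olr1, Trem2 and Cd36 on log axes in each of the 23 lungs, by genotype and exposure, with the mean of each set as a bar, squares for males and circles for females. Dust lungs lie mostly above saline lungs for the first 3 genes and mostly below them for Cd36, and the open symbols at 20 in the Trem2 panel are at the floor.

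In the plot of values by lung, the Fat-1 dust lung that is highest for Trem2 (1383) and for Olr1 (1649.9) is also the lowest for Cd36 (1815). It is Fat-1 female dust lung 2 of day 1, the lung with the poorest positive-control fit. Without the 4 lungs that stood apart, dust minus saline was 1.67 (limma adjusted p = 0.0002584) for Marco, 1.73 (limma adjusted p = 0.0004807) for Olr1, 2.60 (limma adjusted p = 0.0005016) for Trem2 and −0.57 (limma adjusted p = 0.003511) for Cd36, and all 4 passed. In that setting 369 of the 711 genes tested were called, 289 higher and 80 lower.

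The genotype comparison asked whether the dust response differed in Fat-1 lungs. Olr1, Trem2 and Marco rose in both genotypes. In Fat-1 lungs, where 38.1% of genes were called (32.2% higher and 5.91% lower), dust minus saline was 1.24 for Marco (SE 0.31, limma adjusted p = 0.006826), 1.88 for Olr1 (SE 0.33, limma adjusted p = 0.001039) and 2.49 for Trem2 (SE 0.58, limma adjusted p = 0.004995). In WT lungs, where 35.3% were called (30.7% higher and 4.64% lower), it was 2.15 for Marco (SE 0.30, limma adjusted p = 0.0002644), 1.84 for Olr1 (SE 0.32, limma adjusted p = 0.0009085) and 2.59 for Trem2 (SE 0.56, limma adjusted p = 0.002535). After median centring 154 genes were higher and 165 lower in Fat-1 lungs, and 137 higher and 127 lower in WT lungs, and after housekeeping scaling 192 and 72 in Fat-1 and 166 and 52 in WT lungs. Cd36 fell by 0.88 in Fat-1 lungs (SE 0.27, limma adjusted p = 0.01904). In WT lungs its difference was −0.56 with a limma adjusted p of 0.111. The Cd36 call in Fat-1 lungs was lost when either Fat-1 female saline lung was left out (limma adjusted p = 0.06424 and 0.05092), and without the 4 lungs whose labels differ the limma adjusted p of Marco, Trem2 and Cd36 in Fat-1 lungs was 0.06174, 0.05596 and 0.1277. Without the 4 lungs that stood apart, Cd36 passed the test in both genotypes, at −0.56 in Fat-1 lungs (limma adjusted p = 0.04886) and −0.58 in WT lungs (limma adjusted p = 0.02768).

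No gene passed the test of the difference between the genotypes' responses, against 21 at an unadjusted p under 0.05 (0% called). Marco had the largest difference of the 4 genes, at −0.91 for Fat-1 minus WT (95% interval −1.81 to −0.01, unadjusted p = 0.04764, limma adjusted p = 0.9988). The differences were −0.32 for Cd36 (−1.13 to 0.48), 0.04 for Olr1 (−0.92 to 1.00) and −0.10 for Trem2 (−1.79 to 1.58). The intervals allow differences of about 1 on the log2 scale either way for Olr1 and more for Trem2, so a like response was not shown. Among dust lungs, Fat-1 minus WT was −0.40 for Marco (SE 0.28), −0.12 for Cd36 (SE 0.25), 0.08 for Olr1 (SE 0.30) and 0.02 for Trem2 (SE 0.53). Among saline lungs it was 0.51 for Marco (SE 0.32), 0.20 for Cd36 (SE 0.29), 0.04 for Olr1 (SE 0.35) and 0.13 for Trem2 (SE 0.61). No gene passed in either comparison (limma, 22 and 10 genes at an unadjusted p under 0.05). Without the 4 lungs that stood apart the Marco difference in response was −1.39 (unadjusted p = 0.009365, limma adjusted p = 0.34).

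Marco's values by genotype also differed between the days. On day 2 the 2 Fat-1 dust lungs had 317 and 1249 normalized counts and the 3 WT dust lungs 368, 500.4 and 515. On day 1 the 4 Fat-1 dust lungs had 274, 381, 514 and 540.0, and the 4 WT dust lungs 755, 765, 824 and 843. The genotypes thus overlapped on day 2 and not on day 1. How many genes separated in this way was not counted, and the pattern, seen after the values were known, was not tested. The Fat-1 dust lung with 540.0 was WT male dust by title and characteristics. All 4 Fat-1 dust lungs of day 1 were on cartridge 2, as were the WT dust lungs with 824 and 843.

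**Figure D2:**
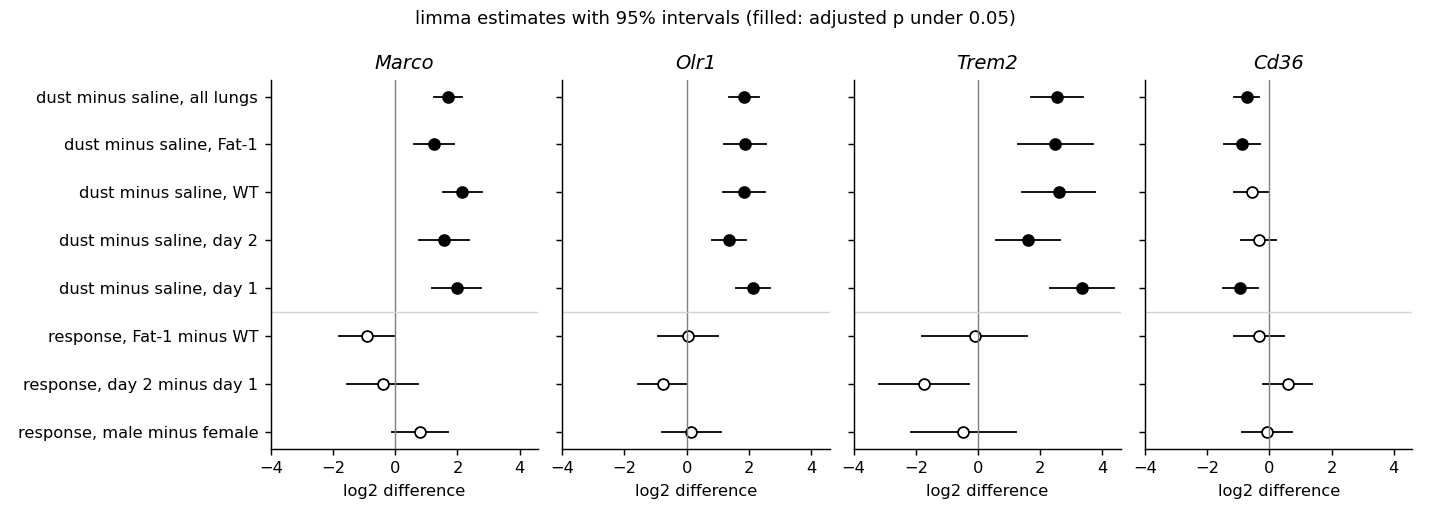
log2 differences of the 4 receptor genes from limma with 95% intervals, for dust minus saline over all lungs, by genotype and by day (upper rows), and for the differences between those responses (lower rows). Filled points passed an adjusted p of 0.05, which none of the lower rows did.

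By day, all 4 genes had a smaller estimated difference on day 2. Cartridge 1 held most day 2 lungs and cartridge 2 most day 1 lungs, with 4 of the 23 lungs as exceptions. A difference between the days therefore cannot be told apart from a difference between the cartridges. Marco rose by 1.57 on day 2 (SE 0.39, limma adjusted p = 0.01261) and by 1.97 on day 1 (SE 0.38, limma adjusted p = 0.0002317). Olr1 rose by 1.37 on day 2 (SE 0.27, limma adjusted p = 0.002851) and by 2.13 on day 1 (SE 0.26, limma adjusted p = 2.625e-06). Trem2 rose by 1.61 on day 2 (SE 0.49, limma adjusted p = 0.03623) and by 3.34 on day 1 (SE 0.49, limma adjusted p = 1.473e-05). Cd36 differed by −0.35 on day 2 (SE 0.27, limma adjusted p = 0.4835) and fell by 0.93 on day 1 (SE 0.27, limma adjusted p = 0.006793). Of all genes tested 13.2% were called on day 2 (12.8% higher, 0.422% lower) and 53.2% on day 1 (41.6% higher, 11.5% lower). Median centring gave 48 higher and 17 lower genes on day 2 and 208 and 239 on day 1, and housekeeping scaling 255 and 122 on day 1. With 1 floor for every lung, Trem2's difference was 1.18 on day 2 (limma adjusted p = 0.07319) and 2.21 on day 1 (limma adjusted p = 0.0002843). Its day 2 call was also lost with no filter (limma adjusted p = 0.05078) and after median centring (limma adjusted p = 0.0593). The day 2 calls rest on few lungs. Without Fat-1 male dust lung 1 of day 2, Marco's day 2 difference was 1.15 (limma adjusted p = 0.1075), and Trem2's lost its call when any of 8 of the 11 day 2 lungs was left out. Without the 2 lungs with a scanner message, the day 2 differences of Marco, Olr1 and Trem2 were 0.98, 1.12 and 1.35 (limma adjusted p = 0.2003, 0.05496 and 0.2749).

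The test of the difference between the days, which called 1.69% of genes, passed for none of the 4. Day 2 minus day 1 of the response was −1.73 for Trem2 (SE 0.69, limma adjusted p = 0.1527), −0.77 for Olr1 (SE 0.38, limma adjusted p = 0.2377), −0.40 for Marco (SE 0.55, limma adjusted p = 0.6753) and 0.58 for Cd36 (SE 0.38, limma adjusted p = 0.356). Both Trem2 values at the floor were in day 1 saline lungs, and with 1 floor for every lung the Trem2 difference was −1.03 (limma adjusted p = 0.3338). Among dust lungs alone, where 15.2% of genes were called (13.2% lower and 1.97% higher on day 2, or 68 genes lower and 52 higher after median centring), Olr1 fell to a mean of 586 ± 204 on day 2 (SD, n = 5), against 1021 ± 321 on day 1 (n = 8). Its log2 difference was −0.83 (SE 0.25, limma adjusted p = 0.03169), and the call was lost without any one of 9 single dust lungs (limma adjusted p up to 0.1095). Cd36 in dust lungs averaged 7218 ± 956 on day 2 and 5312 ± 1843 on day 1, a difference of 0.56 (SE 0.25, limma adjusted p = 0.1217). Among saline lungs, where 0.141% of genes were called, the 4 differences between the days ran from −0.06 (Olr1) to 0.88 (Trem2), with limma adjusted p of 0.8867 or more.

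Sex gave no call among the 711 genes for the difference in response (14 at an unadjusted p under 0.05, limma). Marco averaged 708 ± 313 in male and 514 ± 218 in female dust lungs (SD, n = 6 and 7), and 169.6 ± 92.3 in male and 189 ± 48.9 in female saline lungs (n = 6 and 4). Its response differed by 0.80 for male minus female (95% interval −0.10 to 1.70, limma adjusted p = 0.9984). The differences of the other genes were 0.15 for Olr1, −0.09 for Cd36 and −0.47 for Trem2.

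Within the 13 dust lungs, lungs high for Olr1 were high for Trem2 and low for Cd36, and no relation with Marco passed. Over the 6 pairs of genes, on log2 values, Olr1 and Trem2 had a Pearson r of 0.854 and a Spearman rho of 0.824 (permutation test, adjusted p = 0.00222 and 0.0048). Olr1 and Cd36 had r = −0.750 and rho = −0.720 (permutation test, adjusted p = 0.00794 and 0.0216). Trem2 and Cd36 had r = −0.819 and rho = −0.626 (permutation test, adjusted p = 0.00222 and 0.0502). The pairs with Marco had r of 0.310 with Olr1, 0.143 with Trem2 and 0.026 with Cd36 (permutation test, adjusted p of 0.454 to 0.936). Without the 2 dust lungs that stood apart these were 0.562, 0.535 and −0.480 (permutation test, adjusted p = 0.107, 0.108 and 0.138), with a rho of 0.700 for Marco and Olr1 (permutation test, adjusted p = 0.0625). All values of a lung share 1 scale factor. After median centring, Olr1 and Trem2 had r = 0.811 and rho = 0.648 (permutation test, adjusted p = 0.00308 and 0.0599). Olr1 and Cd36 then had r = −0.88 and rho = −0.841 (permutation test, adjusted p = 0.00054 and 0.00294). Trem2 and Cd36 had r = −0.849 and rho = −0.538 (permutation test, adjusted p = 0.00198 and 0.122).

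Part of these relations rested on few lungs. The 2 lungs farthest from the median of a pair's first-named gene were left out. Then r was 0.653 for Olr1 and Trem2 (n = 11, permutation p = 0.0316), −0.584 for Olr1 and Cd36 (permutation p = 0.0611) and −0.482 for Trem2 and Cd36 (permutation p = 0.134). These p-values were not adjusted over the 6 pairs, so no pair is called from them, and the last 2 did not pass even so. With median centring besides, r of Olr1 and Trem2 was 0.461 (unadjusted permutation p = 0.152). In the 8 dust lungs of day 1 alone r was 0.902, −0.795 and −0.893 (exact permutation test, adjusted p = 0.0182, 0.0352 and 0.0249), and rho was 0.905, −0.643 and −0.738 (exact permutation test, adjusted p = 0.0274, 0.192 and 0.137). With the 2 farthest lungs of that set left out (n = 6), r was 0.854, −0.294 and −0.634 (unadjusted exact permutation p = 0.0278, 0.54 and 0.244). Without the dust lungs that stood apart on run measures (n = 11), r was 0.807, −0.704 and −0.622 (permutation test, adjusted p = 0.015, 0.0459 and 0.0868), and rho was 0.755, −0.609 and −0.527, which did not pass (permutation test, adjusted p = 0.0595, 0.105 and 0.129). Day 2 had 5 dust lungs, too few for a correlation. In the 10 saline lungs r was −0.086, −0.369 and −0.168, and no pair of the 4 genes passed by r (permutation test, adjusted p of 0.171 or more). Marco and Trem2 there had r = 0.687 and rho = 0.802 (permutation test, adjusted p = 0.171 and 0.0452). In the dust lungs of day 1 without the 2 farthest from the median of Marco (n = 6), Marco had r of 0.839 with Olr1, 0.957 with Trem2 and −0.641 with Cd36. Their unadjusted exact permutation p was 0.0389, 0.00972 and 0.275, and no pair is called from them.

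**Figure D3:**
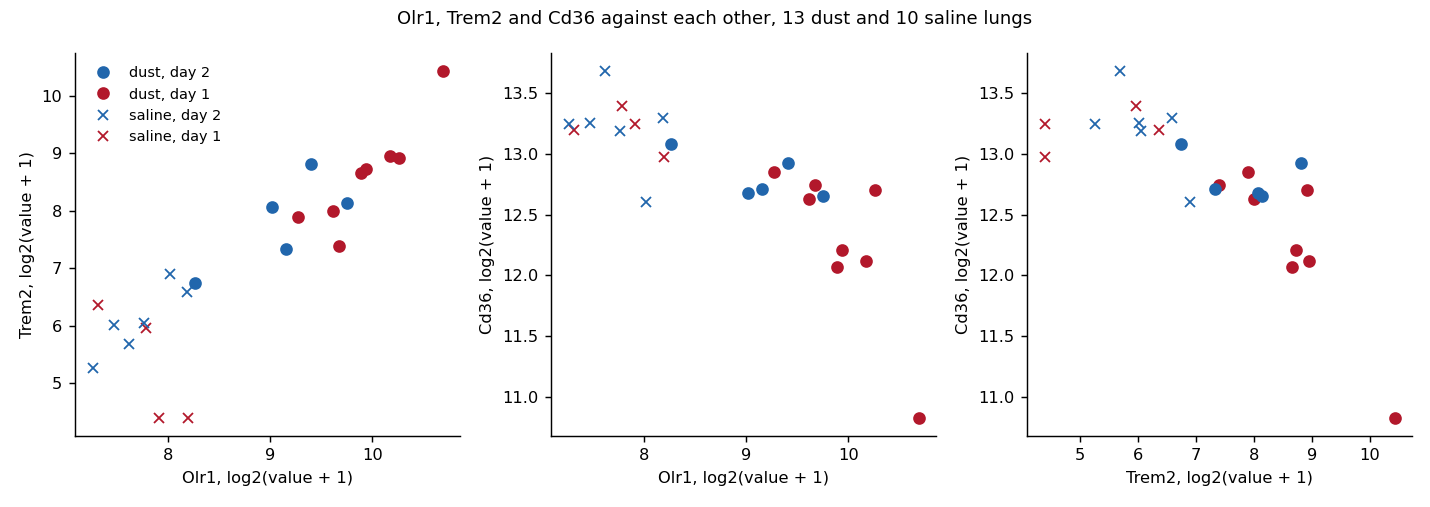
log2(value + 1) of Olr1, Trem2 and Cd36 against each other, 1 point per lung, with dots for dust, crosses for saline and colours for the day. Among dust lungs Trem2 rises with Olr1 (r = 0.854) and Cd36 falls with both (r = −0.750 and −0.819), and the lung at the far end of each panel is Fat-1 female dust lung 2 of day 1.

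Other genes of the same pathways were read against the 43.3% of all tested genes that were called higher. Of 8 other scavenger receptors on the panel, 5 rose and none fell, with a median log2 difference of 0.56, against 0.26 for all genes tested. They included Clec7a, the beta-glucan receptor, at 2122 ± 1300 in dust and 472 ± 110 in saline lungs (SD, n = 13 and 10, log2 difference 1.97), Cd68, a lysosomal scavenger receptor (1.72), Cxcl16, a membrane chemokine that binds oxidised lipoprotein (1.25), and Mrc1, the mannose receptor (0.70). The haemoglobin scavenger Cd163 (−0.17), Timd4 (0.19) and Mertk (0.11), which bind or clear dying cells, did not pass. After median centring 3 of the 8 rose, beside 202 of all 711 genes tested, and Mrc1 and Stab1 lost their calls.

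All 4 measured genes of the TREM family and its signalling rose (median 1.43). The Trem2 adaptor Tyrobp had 3575 ± 1374 normalized counts in dust and 1280.45 ± 295 in saline lungs, a log2 difference of 1.39. The kinase Syk rose by 1.47 and Vav1, an exchange factor downstream of it, by 2.11. Trem1, an activating receptor of neutrophils and monocytes, was at the floor in all 10 saline lungs and in 4 of 13 dust lungs, with an estimate of 1.11 that depends on the floor, and its call was lost with 1 floor for every lung.

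Of 7 genes of lipid uptake, storage and efflux, 5 rose and none fell (median 0.30), beside a median of 0.26 and 43.3% called higher over all genes tested. Lpl, the lipoprotein lipase, rose by 1.09, to 2034 ± 644 in dust lungs against 915 ± 153 in saline lungs. Lipa, the lysosomal acid lipase, rose by 0.45. Pparg, a lipid-activated nuclear receptor that induces Cd36 in macrophages, differed by 0.06 (limma adjusted p = 0.8748), and the fatty acid binding protein Fabp4 by 0.30 (limma adjusted p = 0.109). After median centring 2 of the 7 rose, beside 202 of all 711 genes tested, Lipa lost its call and the list's median was −0.09. Of 10 genes known with Trem2 in lipid-associated macrophages, 9 rose (median 1.17), among them Itgax (1.86) and the cathepsin Ctsd (1.33). Igf1 was at the floor in 8 of 10 saline lungs, with an estimate of 1.15 that depends on the floor, and with 1 floor for every lung its call was lost and 8 of the 10 rose. With that floor 268 of the 711 genes tested were called higher. Clec7a and Tyrobp belong to this list too. Without the 4 lungs that stood apart, the genes that rose were 5 of 8, 3 of 4, 6 of 7 and 9 of 10 of the 4 lists in turn, beside 289 of the 711 genes tested.

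**Figure D4:**
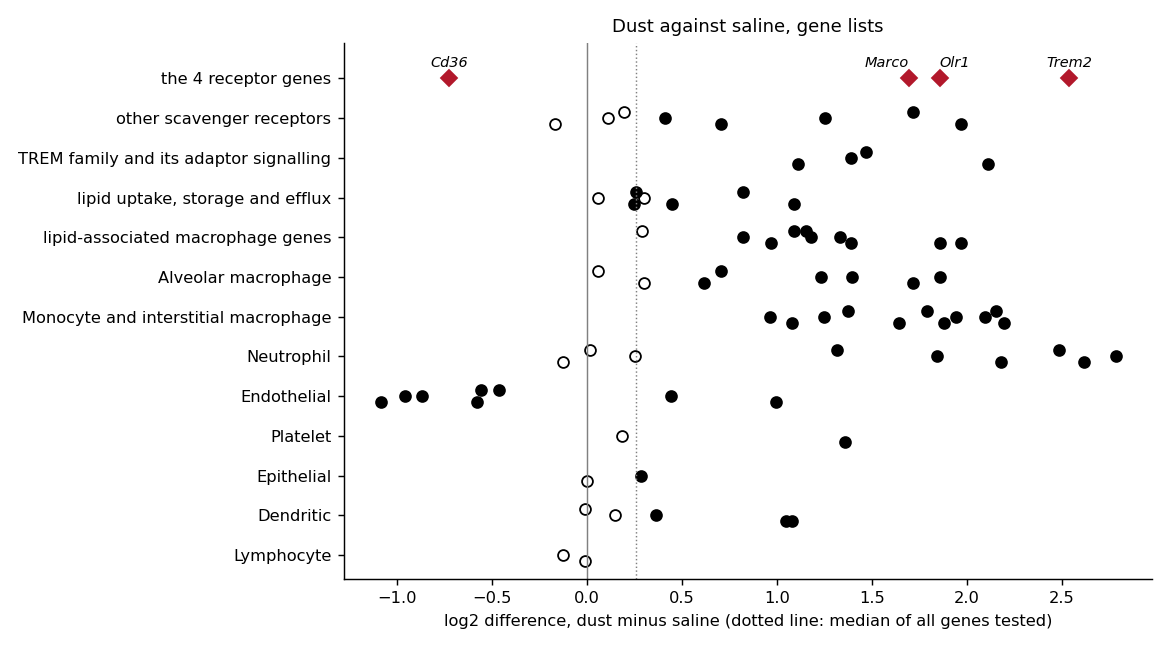
log2 differences for dust minus saline of the 4 receptor genes (diamonds) and of the measured genes of 12 lists (circles, filled where the limma adjusted p was under 0.05). The 6 called endothelial genes at the left lie on the side of Cd36, and the called genes of every other list lie at the right.

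Cell type markers shifted as well, and in whole lung fewer cells of a type and less RNA per cell cannot be told apart. Beside them, 43.3% of the 711 genes tested were called higher and 9.99% lower. Over all genes 289 were higher and 80 lower without the 4 lungs that stood apart, and 202 and 244 after median centring. Of 11 monocyte and interstitial macrophage markers all 11 rose (median 1.79), and their summed level was 3877 to 21340.1 in dust lungs and 2577.5 to 3725.3 in saline lungs. C1qb (2.20), C1qc (1.94), Adgre1 (1.88) and C1qa (1.79) were among them. Of 8 alveolar macrophage markers 6 rose (median 0.97), with sums of 9891 to 42168 in dust and 7124.5 to 21295 in saline lungs, of which Chil3 alone made 84.0% and 83.4%. Of 9 tested neutrophil markers 6 rose (median 1.85), with sums of 1616.5 to 41594 in dust and 1587 to 3537 in saline lungs, of which S100a9 alone made 49.7% and 53.6%. Ly6g, Mpo and Camp did not pass and were at the floor in 19, 22 and 18 of 23 lungs, while Elane was at the floor in every lung. Of 8 endothelial markers 6 fell, among them Tek (−0.96), Ptprb (−0.87), Cdh5 (−0.58) and Angpt2 (−0.56), and 2 rose, the adhesion molecules Selp (1.00) and Vcam1 (0.44). Their summed level was 3059 to 10537 in dust and 9835 to 13171 in saline lungs. Without the 4 lungs that stood apart, the markers that rose were 10 of 11 for monocytes and interstitial macrophages, 7 of 8 for alveolar macrophages and 5 of 9 for neutrophils, and of the endothelial markers 5 fell and 1 rose. After median centring 4 of the 8 alveolar macrophage markers rose, without Siglecf and Mrc1, and of the endothelial markers 6 fell and none rose, since Selp and Vcam1 lost their calls. Of the 9 neutrophil markers 6 then rose and 2 fell. The part of these shifts in the results for the 4 receptor genes was not tested.

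The receptors were also set against those sums in each lung, as a description with no test. Cd36 amounted to 59.4% to 109% of the summed endothelial markers in dust lungs (median 90.9%) and to 60.9% to 122% in saline lungs (median 83.9%). Olr1 amounted to 6.16% to 11.5% of the summed monocyte and interstitial macrophage markers in dust lungs (median 7.33%) and to 5.25% to 8.32% in saline lungs (median 6.73%). For Trem2 the shares of the same sum were 2.09% to 6.48% (median 2.80%) in dust and 0.570% to 3.31% (median 1.97%) in saline lungs. Marco amounted to 1.01% to 4.32% of the summed alveolar macrophage markers in dust (median 2.84%) and to 1.04% to 3.14% in saline lungs (median 1.86%). Other sums gave other medians. Trem2 was 1.34% of the alveolar macrophage sum in dust and 0.599% in saline lungs, Olr1 2.82% in dust and 2.20% in saline lungs of that sum, and 6.51% in dust and 9.61% in saline lungs of the neutrophil sum. Marco was 5.42% in dust and 5.65% in saline lungs of the monocyte and interstitial macrophage sum. The ranges of the 2 exposures overlapped for each of these shares. Probes differ in efficiency, so the shares compare lungs and not genes.

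**Figure D5:**
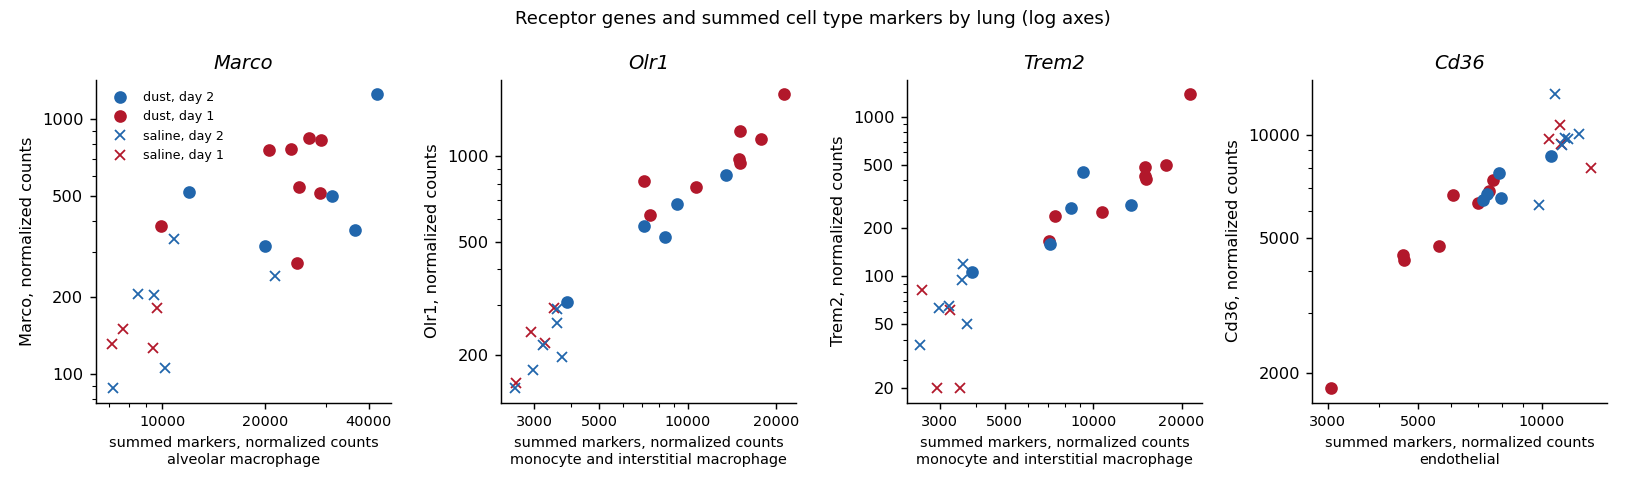
Normalized counts of each receptor gene against the summed markers of 1 cell type list in the same lung, on log axes, with dots for dust and crosses for saline. The lung lowest for Cd36 also has the lowest endothelial sum (3059), while among saline lungs the highest endothelial sum (13171) goes with a Cd36 of 8015. No relation to the sums was tested.

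Apart from exposure and day, the closest companions of each receptor gene on the panel were looked up. Likeness was taken as Pearson's r of deviations from the mean of the lung's exposure and day, over 23 lungs and 467 genes above the floor in every lung. For Olr1 these were Cd68 (r = 0.892), Csf2ra, the receptor chain for GM-CSF (0.887), and Tnfrsf1b, a TNF receptor (0.871), and all 3 rose after dust. For Cd36 they were Dpp4, a membrane peptidase (0.932), Enpep, an aminopeptidase (0.924), and the actin-severing protein Gsn (0.912), and all 3 fell, by 0.70, 0.59 and 1.17. For Trem2 they were Eif4ebp2, a translation repressor (0.817), the complement receptor C3ar1 (0.794) and Traf1, a TNF receptor adaptor (0.772). Of these C3ar1 rose by 2.39, while Eif4ebp2 (0.00) and Traf1 (0.16) did not pass. For Marco they were the replication helicase subunit Mcm5 (0.734), the chemokine Ccl9 (0.675) and the metalloprotease Mmp19 (0.646), which rose by 0.42, 3.07 and 1.35. None of these companions was named for more than 1 of the 4 genes, but with 3 of 467 genes compared for each this says little about sharing. Further down, Sema4a had r = 0.763 with Trem2 and −0.809 with Cd36. These r values were not taken after median centring, and Trem2 was at the floor in 2 saline lungs.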

How the data were processed

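RNA of 23 left lungs was counted on a NanoString nCounter mouse myeloid panel (734 endogenous and 20 housekeeping genes, 14 control probes). What was deposited is a signal: probe counts multiplied by 1 scale factor per lung (0.682 to 4.213), per the file headers and the spacing of the values. The sources used here do not name the genes behind the factor, the software or the genome build. Above the floor, 100.0% of values under 1000 were whole multiples of a lung's step within 0.1 steps. Counts recovered ran from 110453 to 812429 per lung, with 66 to 232 genes at the floor of 20, and low genes carry the greatest counting error.

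Lungs were grouped by extract code into 8 groups of genotype, sex and exposure (2 to 4 lungs each). For 19 lungs title, characteristics and code named 1 group, and for 4 they disagreed. Lungs of the same group differed by 4.62 to 258.1 in chi-square per degree of freedom, so none looked deposited again.

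The limma package (3.58.1, R 4.3.3) was run on log2(value + 1) over the 711 genes above the floor in at least 1 lung, two-sided, with Benjamini-Hochberg adjustment and a threshold of 0.05. A model of 8 group means gave the contrasts of exposure, genotype and sex, and a model of exposure and day sets with genotype and sex as terms gave those of day. The model was tested on simulated data. Permutation tests used 100000 resamples, or all pairings under 10 lungs. Python 3.11.15 with numpy 2.4.6, pandas 2.3.3, scipy 1.17.1 and matplotlib 3.10.9 prepared the values and plots.

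The 4 genes, the gene lists and the motifs were chosen with earlier results of these data known. From each list up to 4 genes with the smallest p were named, besides genes that fell outside it, which were named after their values were seen. For each receptor the 3 most like genes were named. Alternatives covered pseudocount, filter, floor, scaling, grouping, batch, single lungs left out and lungs that stood apart.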

Additional observations from a re-analysis of the deposited data

Results flagged for a closer look

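A lung was picked out where its gap to the nearest other lung of its set, divided by the set's range, passed Dixon's 95% critical value. Of 40 such tests 7 passed. The sets shared lungs and the values were not log-transformed, so the number that chance alone would pick out is not known. Fat-1 female dust lung 2 of day 1 accounted for 4 of them. In the 6 Fat-1 dust lungs its Olr1 was 1649.91 against 517 to 860.0 in the others, its Trem2 1382.8 against 167 to 282, and its Cd36 1815.37 against 6323 to 7387. Its Trem2 also stood out among the 8 dust lungs of day 1, where the others had 167 to 497. The lung had the lowest positive-control fit of all 23 (r2 of 0.9255), a summed monocyte and interstitial macrophage level of 21340.1, the highest of the dust lungs, and a summed endothelial level of 3058.7, the lowest. Their part in its values was not tested. Fat-1 male dust lung 1 of day 2, which carried a scanner message, had a Marco value of 1249.4. The other Fat-1 dust lungs had 274 to 540.0 and the other dust lungs of day 2 had 317 to 515. WT female dust lung 2 of day 2 had a Trem2 value of 105.97, against 448 to 497 in the other 3 WT female dust lungs. No test of a difference between the genotypes', days' or sexes' responses passed for any of the 4 genes.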

How the results depend on the processing

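Of 1800 values of the 4 receptor genes under alternatives, 1756 kept their direction and side of the threshold, or stayed uncalled, and no called value changed sign. For dust against saline this held for 158 of 159, the exception being Cd36 in the lungs of cartridge 1 (−0.6662), where the count over all genes was 191 against 379. Part of the 1756 was fixed in advance, since leaving out a lung of 1 genotype cannot move the dust estimate of the other genotype. Median centring moved the median of all genes to −0.13 and Cd36 in WT lungs to a call (−0.95, limma adjusted p = 0.02463). The other counts called over all genes moved as follows. In Fat-1 lungs 271 genes became 167 by the characteristics, 69 without the 4 lungs whose labels differ, 160 with the replicate block and 122 without the 4 lungs that stood apart, and single lungs left out gave 164 to 336. In WT lungs 251 became 139 without the label-discordant lungs and 117 to 307 with single lungs left out. On day 2, 94 became 24 without those lungs, 9 without the 2 lungs with a scanner message and 18 without the 4 that stood apart, and 26 (without Fat-1 male dust lung 1 of day 2) to 149 with single lungs left out. The 12 genes of the day difference became 6 with no filter, 0 with genes above the floor in every lung (no tested gene passed), 1 with 1 floor for every lung, 31 without the label-discordant lungs, 6 with the cartridge as a block, 5 with the replicate block, 4 without the lung of the highest factor, 104 without the message lungs and 70 without the 4 apart, and 4 to 145 with single lungs left out. Among dust lungs the 108 genes between days became 180 with the cartridge block, 6 with the replicate block, 224 and 251 without the message and the apart lungs, and 12 to 238 with single lungs left out. Among saline lungs the single gene became 3 with 1 floor, 0 with a pseudocount of 20, the stricter filter, the cartridge block, the replicate block, without the lung of the highest factor and without the 4 apart, and 0 to 6 with single lungs left out. With 1 floor, 1 gene each was called for genotype by exposure, Fat-1 against WT after saline and sex by exposure, and without the 4 apart 15 for the saline genotype comparison and 3 for sex by exposure. Single lungs left out gave 0 to 1 for genotype by exposure and sex by exposure, 0 to 5 for genotype after dust and 0 to 2 after saline. Lungs that share a day and a replicate number did not deviate together (65 pairs in different groups, correlation −0.446 to 0.738, median −0.01), so the block pairs nothing the labels name. With it 277 genes were called for dust. Of the receptors, the replicate block ended the calls of Cd36 in Fat-1 lungs (−0.63) and on day 1 (−0.60), of Trem2 on day 2 and of Olr1 between days. In saline lungs r was −0.086 for Olr1 and Trem2, −0.369 for Olr1 and Cd36 and −0.168 for Trem2 and Cd36. In dust lungs r of Trem2 and Cd36 was −0.622 without the apart lungs and −0.482 without the 2 farthest lungs. The causes were not tested. Settings that leave out apart or message lungs, and single cartridges, were chosen after seeing the data. The planned edgeR fit was not run, because genes under 20 counts are listed only at the floor. With 2 to 4 lungs a group, and a floor that reached 84.26, the interval of Trem2's difference between genotypes' responses spanned −1.79 to 1.58.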

Other observations

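Lists of other cell types were measured with few genes. Of 2 platelet markers, a cell that carries Cd36, the chemokine Pf4 rose by 1.36 (371 ± 187 normalized counts in dust and 134 ± 35.0 in saline lungs, SD, n = 13 and 10) and the receptor Clec1b differed by 0.18 (limma adjusted p = 0.4006). Their summed level was 201.0 to 992.8 in dust and 172.3 to 292.6 in saline lungs. Of 5 dendritic cell markers 3 rose, Flt3 (1.08), Batf3 (1.05) and Xcr1 (0.36), beside 43.3% of all genes tested. Clec9a (−0.01) and Ccr7 (0.15) did not pass. With 1 floor for every lung none of the 5 passed. Of 2 epithelial markers the lysosomal protein Lamp3 was higher in dust lungs by 0.29 (limma adjusted p = 0.03776), with an estimate under 0 after median centring, and Cdh1 differed by 0.00 (limma adjusted p = 0.9902). Neither lymphocyte marker passed, with −0.01 for the B-cell gene Ms4a1 and −0.13 for Nkg7.

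Some alternatives called genes in the genotype comparison, but none of the 4 receptor genes was among them. Among saline lungs, where none was called with all lungs, 15 genes were called without the 4 lungs that stood apart on run measures, while the 4 receptors had limma adjusted p of 0.4266 or more under every alternative run.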
